A study of Homo sapiens with 45 samples.

Results

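Transcripts of Jurkat cells given guides to both ATPases of the BAF chromatin remodelling complex were compared with those of Jurkat cells given a control guide. The comparison used 6 of the 45 libraries of the series, chosen by their labels alone, with 3 libraries of the group labelled gSMARCA4_A2 (guides to SMARCA4 and SMARCA2) and 3 of the group labelled gAAVS1 (a guide to the AAVS1 site, a locus often used as a neutral target). Jurkat is an established human T-cell acute lymphoblastic leukaemia (T-ALL) line. Cells of both groups were transduced with guides, had puromycin for 4 days, and gave poly(A) RNA on day 10. The labels do not say whether cells were cloned, so each library is taken as a culture of transduced cells in which edited and unedited cells may be mixed. Further Jurkat groups serve here only where they are named. They are gSMARCA4 (the SMARCA4 guide without the SMARCA2 guide), gARID1A_1B (guides to ARID1A and ARID1B), and cells kept for 8 d in 1 uM of BRM014, with 0.01% DMSO as its control.

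BAF complexes use the energy of ATP to slide or evict nucleosomes, which opens enhancers and promoters to transcription factors. Each complex holds a single catalytic subunit, either SMARCA4 (also called BRG1) or its paralog SMARCA2 (also called BRM), and in many cell types the paralogs can partly stand in for each other. ARID1A and ARID1B are alternative DNA-binding subunits of the canonical form, cBAF. BRM014 blocks the ATPase activity of both SMARCA4 and SMARCA2. In T cells BAF works beside RUNX1, TCF7 and other lineage factors, and in T-ALL it has been studied at the enhancers of TAL1, MYC and NOTCH targets.

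Levels are in TPM as deposited, a gene's share of all transcripts after correction for gene length, and their errors are SD over 3 libraries. Log2 fold changes are on log2(TPM + 1), which understates changes of genes with low levels, and their errors are SE from limma. A gene is called when its Benjamini-Hochberg adjusted p over the 17936 genes tested was under 0.05. Of these genes, 7337 were called higher (40.9%) and 3793 lower (21.1%), or 62.1% in either direction, so a call alone sets no gene apart. At a change of at least 2-fold, 753 genes were called higher (4.2%) and 233 lower (1.3%). The median of all genes was 0.11 on the log2 scale. After median-ratio rescaling of the libraries it was -0.004, with 5479 genes called higher and 5617 lower, and the share of calls that were higher went down to 49.4%, against 65.9% as deposited. Small increases therefore depended on the scaling, whereas at 2-fold the rescaled counts were 575 higher and 297 lower.

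The gSMARCA4_A2 libraries held 38.9, 46.5 and 40.6 M (1e6) reads on genes, and the gAAVS1 libraries 29.7, 39.9 and 47.9 M. The share of TPM from mitochondrially encoded mRNAs was 21.8 to 23.9% in gSMARCA4_A2 and 22.2 to 22.8% in gAAVS1. Genes at 1 TPM or more numbered 17129 to 17415 in gSMARCA4_A2 and 16300 to 16487 in gAAVS1. CD3D and CD3E, signalling chains of the T cell receptor, stood between 548 and 661 TPM in gSMARCA4_A2 and between 533 and 659 TPM in gAAVS1. Neither was called (CD3D 0.01 ± 0.05, adjusted p = 0.916, CD3E 0.01 ± 0.04, adjusted p = 0.917), so CD3D and CD3E were present at similar levels in both groups. They come from a longer list of T-cell markers, most of which are not given here, and they do not stand for T-cell genes at large. TAL1 was higher by 1.28. Of 35 receptor and proximal signalling genes 19 were called lower and 7 higher, and of 26 tested T cell surface molecules 13 lower and 7 higher. Over all genes tested, 21.1% were called lower and 40.9% higher. Markers of other cell types were mostly low. The summed level of 14 myeloid genes was 18.0 to 19.5 TPM in gSMARCA4_A2 and 13.3 to 14.9 TPM in gAAVS1, and that of 14 erythroid and megakaryocyte genes was 18.2 to 20.7 TPM in gSMARCA4_A2 and 13.8 to 17.3 TPM in gAAVS1. For 12 epithelial and fibroblast genes it was 8.93 to 10.1 TPM in gSMARCA4_A2 and 7.76 to 9.19 TPM in gAAVS1, and for 12 NK cell genes 15.7 to 18.1 TPM in gSMARCA4_A2 and 16.3 to 20.6 TPM in gAAVS1. Neuronal genes, 12 in number, summed to 122 to 134 TPM in gSMARCA4_A2 and 147.0 to 152 TPM in gAAVS1. In all 6 libraries, 1 of the myeloid, 6 of the erythroid and megakaryocyte, 1 of the epithelial and fibroblast, 0 of the NK cell and 1 of the neuronal genes were listed at 0. The B cell list differed and is described with the lineage genes.

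Among the targeted genes, SMARCA4 mRNA fell and SMARCA2 mRNA did not pass the test. SMARCA4 (chromosome 19, 10961030 to 11062273, hg38) stood at 52.2, 47.5 and 49.8 TPM in gSMARCA4_A2, against 96.8, 95.5 and 100.2 TPM in gAAVS1. All 3 gSMARCA4_A2 libraries lay below the lowest control library, with a log2 fold change of -0.95 ± 0.06 (adjusted p = 8.72e-12). SMARCA2 (chromosome 9, 2015347 to 2193620) stood at 22.4, 22.6 and 22.1 TPM in gSMARCA4_A2, against 22.7, 21.8 and 20.8 TPM in gAAVS1. These values overlapped, and the change of 0.04 ± 0.07 was not called (adjusted p = 0.669) and was -0.09 after median-ratio rescaling. In gSMARCA4, by contrast, SMARCA2 was called higher than in gAAVS1 by 0.28, and the direct difference of gSMARCA4_A2 against gSMARCA4 was -0.24 ± 0.07 (adjusted p = 0.0121). Small insertions or deletions can end a protein while its mRNA persists, and no protein data were analysed here, so the loss of SMARCA2 protein is not shown by these values. In bulk RNA, fewer cells with a transcript and less of it per cell cannot be told apart.

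**Figure D1:**
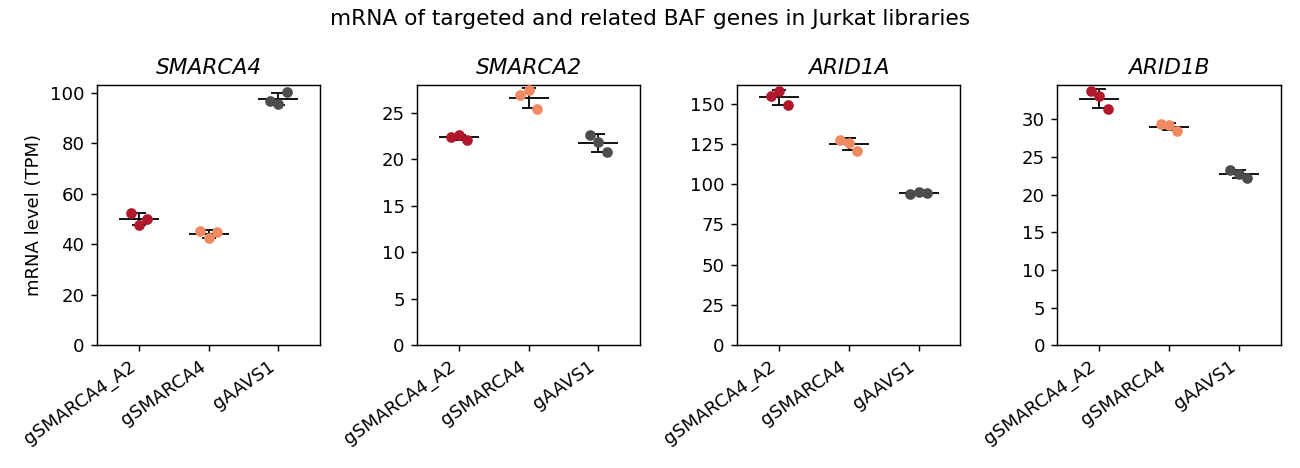
mRNA level in TPM (linear axis from 0) of SMARCA4, SMARCA2, ARID1A and ARID1B in gSMARCA4_A2, gSMARCA4 and gAAVS1. Points are the 3 libraries, the bar is the mean and the error bar the SD. SMARCA4 averages 49.9 TPM in gSMARCA4_A2 and 97.5 TPM in gAAVS1, SMARCA2 overlaps between these groups, and ARID1A and ARID1B are higher in gSMARCA4_A2.

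The counts of BAF genes called higher and lower depended on the scaling. As deposited, 40.9% of all genes tested were called higher and 21.1% lower. ARID1A averaged 154 ± 4.52 TPM in gSMARCA4_A2, against 94.4 ± 0.697 TPM in gAAVS1 (0.70 ± 0.05, adjusted p = 4.68e-11), and ARID1B 32.7 ± 1.22 TPM in gSMARCA4_A2, against 22.7 ± 0.525 TPM in gAAVS1 (0.51 ± 0.06, adjusted p = 9.9e-08). The plot of the BAF genes shows that the ARID1A and ARID1B values of the groups do not overlap. Of the 21 cBAF genes tested, 12 were called higher and 4 lower, with a median of 0.14 beside 0.11 for all genes, and after median-ratio rescaling 7 were higher and 7 lower. SMARCA4 itself is among the genes called lower in both counts. SMARCD3, a subunit that links BAF to transcription factors, rose by 0.79 ± 0.10, and SS18 rose by 0.53 ± 0.04. Of 7 genes of the PBAF and ncBAF forms 3 were higher and 1 lower (median 0.12), and 2 were higher and 1 lower after rescaling (median -0.01). BICRAL and BICRA are alternative subunits of ncBAF. BICRAL stood at 31.8, 32.5 and 29.8 TPM in gSMARCA4_A2, against 10.5, 10.2 and 10.1 TPM in gAAVS1 (1.52 ± 0.07, adjusted p = 1.61e-13), and BICRA rose by 0.81 ± 0.08. BRD9, another ncBAF subunit, fell by 0.27 ± 0.04. PBRM1 of PBAF was called at 0.17 (adjusted p = 0.018), a call that was lost after rescaling (0.04, adjusted p = 0.484), without gAAVS1 replicate 3 (0.12, adjusted p = 0.115), without gSMARCA4_A2 replicate 1 (0.13, adjusted p = 0.0923) and without gSMARCA4_A2 replicate 2 (0.16, adjusted p = 0.0514).

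Remodellers outside BAF were called equally often in each direction, and Polycomb genes leaned up. Over all genes tested, calls were not even, with 40.9% higher, 21.1% lower and a median of 0.11. Of 15 remodelling ATPases of other families 5 were higher and 5 lower, with a median of 0.04. After rescaling 5 were higher and 6 lower (median -0.08). ATRX rose by 0.59 ± 0.07, SMARCA1 by 0.60 ± 0.11 and CHD2 by 0.55 ± 0.08, while HELLS, which acts in DNA methylation, fell by 0.66 ± 0.08. Polycomb complexes repress genes through histone marks and often oppose BAF. Of 20 Polycomb genes 12 were higher and 4 lower, with a median of 0.31, and after rescaling 11 were higher and 5 lower (median 0.19). CBX8, a reader of the Polycomb mark, stood at 40.4, 40.3 and 38.1 TPM in gSMARCA4_A2, against 19.1, 19.4 and 19.6 TPM in gAAVS1 (1.00 ± 0.06, adjusted p = 1.25e-11). PCGF3 rose by 0.81 ± 0.06, CBX7 by 0.67 ± 0.09 and JARID2 by 0.60 ± 0.12.

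Named for size were 12 increases and 12 decreases of protein-coding genes at 5 TPM or more, with every gSMARCA4_A2 library beyond every gAAVS1 library as a condition. Of all genes tested, 44.7% met that condition upward and 24.5% downward. SOSTDC1 (chromosome 7, 16461481 to 16465738), a secreted antagonist of BMP and WNT signals, had the largest increase. It stood at 381, 366 and 346 TPM in gSMARCA4_A2, against 27.8, 24.3 and 21.4 TPM in gAAVS1 (3.85 ± 0.11, adjusted p = 1.99e-16). EEF1A2 (chromosome 20, 63488014 to 63499083) encodes the elongation factor isoform of neurons and muscle. Its level was 23.1, 24.2 and 18.8 TPM in gSMARCA4_A2, against 0.921, 0.749 and 0.614 TPM in gAAVS1 (3.71 ± 0.13, adjusted p = 1.66e-15). CD38 (chromosome 4, 15778328 to 15853232), a surface enzyme that consumes NAD, was at 89.5, 81.8 and 74.3 TPM in gSMARCA4_A2, against 9.71, 8.03 and 6.94 TPM in gAAVS1 (3.17 ± 0.22, adjusted p = 1.83e-10).

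Cytoskeletal, chromatin and receptor genes were also among the large increases. CTTN, the actin regulator cortactin, averaged 84.5 ± 4.03 TPM in gSMARCA4_A2, against 10.3 ± 0.718 TPM in gAAVS1 (2.91 ± 0.12). The forkhead factor FOXB1 averaged 44.1 ± 6.81 TPM in gSMARCA4_A2, against 5.08 ± 0.172 TPM in gAAVS1 (2.88 ± 0.14). CCR4, the receptor of the chemokines CCL17 and CCL22, averaged 34.0 ± 6.36 TPM in gSMARCA4_A2, against 4.24 ± 1.11 TPM in gAAVS1 (2.74 ± 0.32). H2AC6 is a histone H2A gene, and poly(A) RNA leaves out histone mRNA without a poly(A) tail. Its measured level averaged 30.1 ± 3.89 TPM in gSMARCA4_A2, against 3.97 ± 0.167 TPM in gAAVS1 (2.64 ± 0.11). These genes share no single role, and the remaining increases were in ID2 (2.76 ± 0.11, described with the T-ALL factors), DBNDD1 (3.37 ± 0.13), PIFO (2.62 ± 0.08, listed as CIMAP3 by RefSeq), the receptor GPR17 (2.58 ± 0.15) and the LIM protein CRIP2 (2.57 ± 0.12). GPR17 overlaps LIMS2 on the opposite strand over 7.34% of its exonic bases, and the library kit does not keep the strand.

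Among the large decreases were a phospholipase, a T cell adaptor, a lipid-antigen protein and a chemokine receptor. PLA2G3 (chromosome 22, 31134807 to 31140508), a secreted phospholipase, was at 0.357, 0.444 and 0.392 TPM in gSMARCA4_A2, against 23.5, 10.1 and 13.1 TPM in gAAVS1 (-3.48 ± 0.31, adjusted p = 6.93e-09). TRAT1 (chromosome 3, 108822786 to 108855005), a membrane adaptor of the T cell receptor complex, was at 2.53, 2.77 and 2.10 TPM in gSMARCA4_A2, against 23.2, 26.1 and 24.4 TPM in gAAVS1 (-2.89 ± 0.09, adjusted p = 5.31e-16). CD1E (chromosome 1, 158353894 to 158357553) takes part in the presentation of lipid antigens and is made by cortical thymocytes. It was at 3.62, 3.15 and 3.30 TPM in gSMARCA4_A2, against 30.5, 32.5 and 30.5 TPM in gAAVS1 (-2.88 ± 0.16, adjusted p = 3.97e-12). CXCR4 (chromosome 2, 136114349 to 136118149), the receptor that holds T-ALL cells in the marrow niche, was at 32.4, 30.5 and 33.7 TPM in gSMARCA4_A2, against 201, 223 and 222 TPM in gAAVS1 (-2.70 ± 0.11, adjusted p = 2.83e-14). Further large decreases were in RCBTB2 (-2.30), TMEM71 (-2.25), MZB1 (-2.21), CD79A (-2.08), SH3TC1 (-1.99), the potassium channel KCNA6 (-1.98, its exons lying within GALNT8, which averaged 0.463 TPM in gSMARCA4_A2 and 0.47 TPM in gAAVS1) and TEX19 (-1.96).

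**Figure D2:**
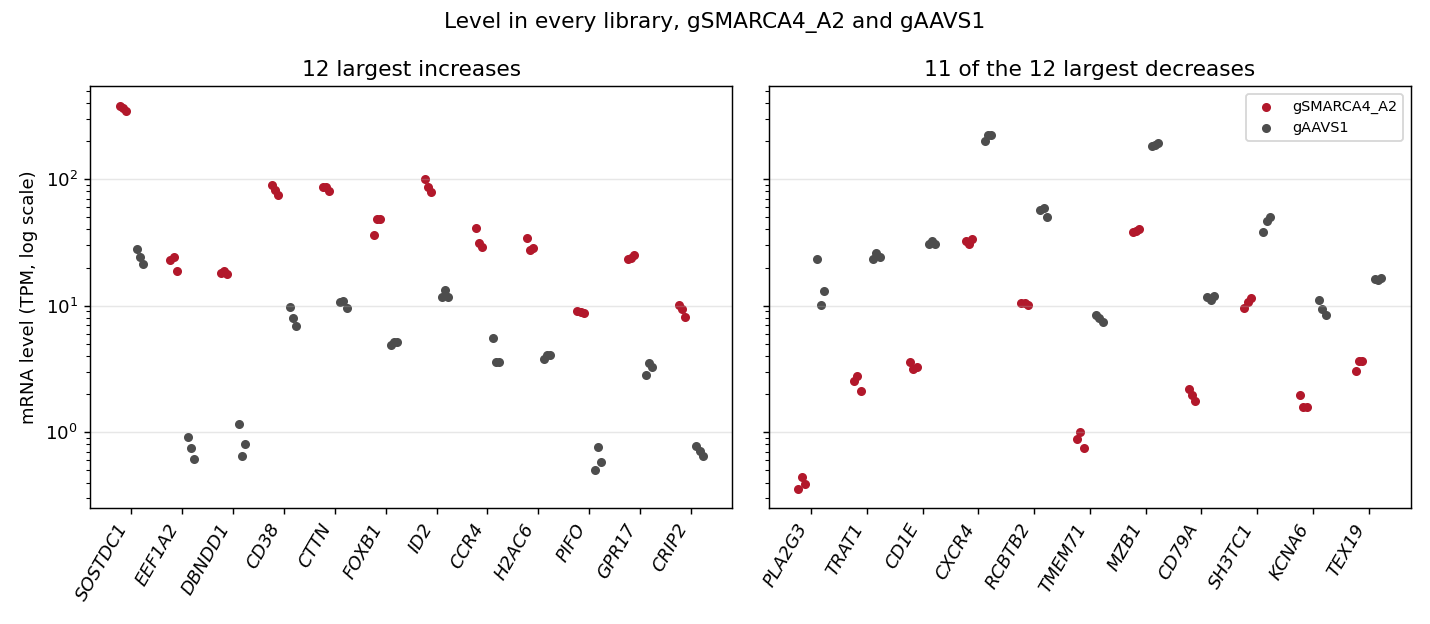
Level of each of the 12 largest increases and 11 of the 12 largest decreases in every library (TPM, log scale), with gSMARCA4_A2 left of gAAVS1 for each gene. The genes were chosen for groups that do not overlap, with gSMARCA4_A2 above gAAVS1 in the left panel and below it in the right panel. PLA2G3 is the gene whose gAAVS1 libraries spread most among the decreases, between 10.1 and 23.5 TPM.

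**Figure D3:**
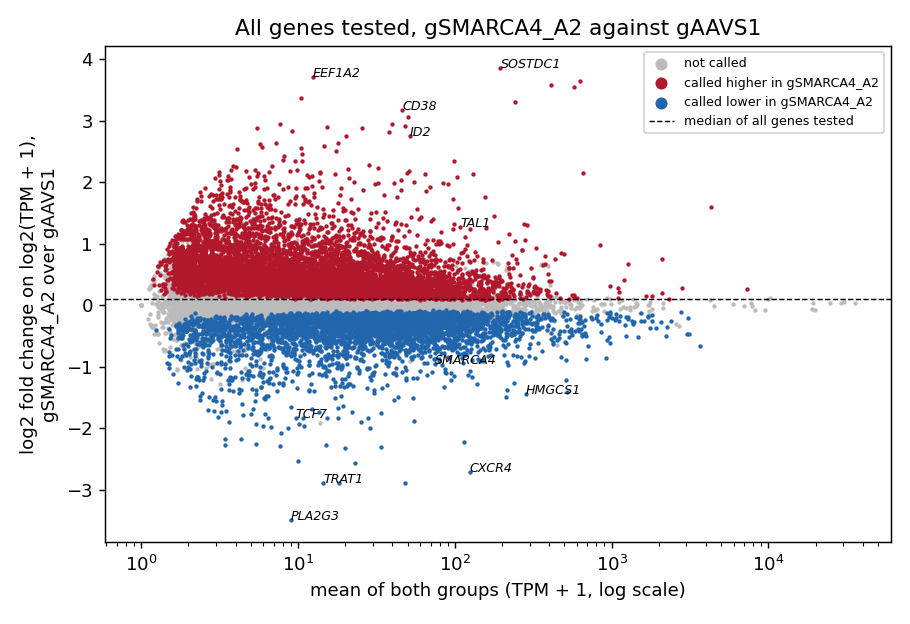
Log2 fold change of gSMARCA4_A2 over gAAVS1 against the mean level of both groups (TPM + 1, log scale) for the 17936 genes tested, with called genes in colour and the median of all genes (0.11) as a dashed line. Changes past 2-fold are rarer than smaller ones, and more of them point up (753) than down (233).

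Promoters of the genes with the largest decreases are shown because RUNX1, a partner of BAF in T cells, binds the letters TGTGGT. Of these 12 genes, 8 had a promoter in the RefSeq table (GRCh38.p14), and 5 of the 8 (TRAT1, CD1E, MZB1, CD79A and KCNA6) held TGTGGT on either strand within 250 bases before the start. Among the 12 largest increases 8 had a promoter and 1, GPR17, held it. Over all genes of the table, 13.2% of 27305 held the letters in at least 1 window, and over all windows of the same length 11.0% of 35116. The match describes few genes, and binding was not measured here. The capitals below mark the motif, as ACCACA where it lies on the other strand, and each run is the 250 bases before the start on the gene's strand.
TRAT1, chr3:108822536-108822785, plus strand: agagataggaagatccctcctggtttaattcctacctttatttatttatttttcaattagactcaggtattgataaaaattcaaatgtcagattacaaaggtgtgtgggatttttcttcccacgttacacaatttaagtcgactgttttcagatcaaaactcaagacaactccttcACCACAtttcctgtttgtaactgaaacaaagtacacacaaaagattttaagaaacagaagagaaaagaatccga
CD1E, chr1:158353644-158353893, plus strand: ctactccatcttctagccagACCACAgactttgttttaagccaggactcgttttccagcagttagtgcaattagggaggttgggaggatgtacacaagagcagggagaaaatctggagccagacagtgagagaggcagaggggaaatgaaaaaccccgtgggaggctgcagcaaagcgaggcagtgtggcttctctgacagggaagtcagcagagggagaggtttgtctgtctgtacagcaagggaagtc
MZB1, chr5:139389914-139390163, minus strand: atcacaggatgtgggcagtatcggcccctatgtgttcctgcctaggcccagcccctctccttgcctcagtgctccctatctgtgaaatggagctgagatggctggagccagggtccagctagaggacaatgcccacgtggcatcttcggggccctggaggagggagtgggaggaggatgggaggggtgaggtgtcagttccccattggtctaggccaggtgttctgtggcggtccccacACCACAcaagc
CD79A, chr19:41877029-41877278, plus strand: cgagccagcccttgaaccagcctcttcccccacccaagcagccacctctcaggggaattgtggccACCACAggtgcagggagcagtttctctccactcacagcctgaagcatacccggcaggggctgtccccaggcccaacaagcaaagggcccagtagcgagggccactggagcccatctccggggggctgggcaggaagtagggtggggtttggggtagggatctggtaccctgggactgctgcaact
GPR17, chr2:127645903-127646152, plus strand: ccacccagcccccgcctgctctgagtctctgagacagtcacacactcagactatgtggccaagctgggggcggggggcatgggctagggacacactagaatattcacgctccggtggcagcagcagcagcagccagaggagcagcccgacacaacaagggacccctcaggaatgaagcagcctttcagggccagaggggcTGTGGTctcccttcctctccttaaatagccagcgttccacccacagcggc
Further motifs were counted in the same windows, both strands included. An AP-1 site (TGANTCA) and an ETS site (CCGGAAG) were in 0 of the 8 promoters of either direction, against 8.06% and 10.2% of all genes and 6.57% and 8.52% of all windows. A GATA site (AGATAA) was in 1 of 8 increases and 0 of 8 decreases (11.1% of genes, 9.17% of windows), and an E-box (CAGNTG) was in 6 of 8 increases and 4 of 8 decreases (47.5% of genes, 42.5% of windows).

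Transcription factors of T-ALL moved in both directions. Of 34 tested, 17 were called higher and 9 lower, with a median of 0.14 (0.02 after rescaling), and 6 rose and 4 fell by at least 2-fold. Over all genes tested, 40.9% were called higher and 21.1% lower, with a median of 0.11. At 2-fold the shares of all genes were 4.2% higher and 1.3% lower. TAL1 (chromosome 1, 47216290 to 47232335), the oncogene that Jurkat cells express from a mutated enhancer, stood at 154, 157 and 145 TPM in gSMARCA4_A2, against 65.0, 60.5 and 60.8 TPM in gAAVS1. All 3 gSMARCA4_A2 values were above every control value (1.28 ± 0.07, adjusted p = 5.15e-12). GATA3, a partner of TAL1, averaged 104 ± 5.42 TPM in gSMARCA4_A2, against 49.5 ± 3.34 TPM in gAAVS1 (1.05 ± 0.13, adjusted p = 3.64e-07). Further partners of TAL1 had small differences. RUNX1 was called at 0.25 ± 0.08 (adjusted p = 0.00718) and MYB at 0.32 ± 0.10 (adjusted p = 0.00582), and neither call held after rescaling (0.12, adjusted p = 0.106, and 0.19, adjusted p = 0.0631). ID2, which binds and blocks the E proteins that TAL1 pairs with, was at 100.2, 86.8 and 79.7 TPM in gSMARCA4_A2, against 11.7, 13.3 and 11.8 TPM in gAAVS1 (2.76 ± 0.11, adjusted p = 2.52e-14). HHEX, a homeobox factor of blood progenitors, was at 5.22, 4.04 and 3.10 TPM in gSMARCA4_A2, against 0.249, 0.0733 and 0.18 TPM in gAAVS1 (2.11 ± 0.13).

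Growth and T-lineage factors were among those that fell. MYC (chromosome 8, 127735434 to 127742951) was at 78.8, 75.9 and 73.4 TPM in gSMARCA4_A2, against 155, 140.1 and 146 TPM in gAAVS1 (-0.94 ± 0.07, adjusted p = 2.81e-10). TCF7 (chromosome 5, 134108218 to 134148210), which sets T-lineage identity in the thymus, was at 3.40, 2.98 and 3.29 TPM in gSMARCA4_A2, against 13.7, 14.6 and 13.9 TPM in gAAVS1 (-1.84 ± 0.08, adjusted p = 4.48e-14). NOTCH3 fell by 1.00 ± 0.17 (8.91 ± 0.257 TPM in gSMARCA4_A2, against 18.9 ± 1.80 TPM in gAAVS1), whereas NOTCH1, with values that overlapped, was not called (-0.06 ± 0.09, adjusted p = 0.613).

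Targets of these factors showed no common direction. Of 15 genes listed as TAL1-complex targets 5 were higher and 3 lower (median 0.10), and after rescaling 4 were higher and 6 lower (median -0.03). Of 15 NOTCH targets 6 were higher and 6 lower (median 0.08), and after rescaling 4 were higher and 7 lower (median -0.05). Over all genes tested, 40.9% were called higher and 21.1% lower, with a median of 0.11. The TAL1-complex targets as deposited lay near these values, so their counts do not set them apart. ALDH1A2, a retinoic acid enzyme that TAL1 drives in T-ALL, averaged 612 ± 17.8 TPM in gSMARCA4_A2, against 339.6 ± 31.8 TPM in gAAVS1 (0.85 ± 0.16). ARID5B rose by 1.33 ± 0.12, CDK6 fell by 1.28 ± 0.09 and UBASH3A by 0.97 ± 0.07. Among NOTCH targets NRARP, a feedback inhibitor of NOTCH, rose by 1.71 ± 0.11 and HEY1 by 1.32 ± 0.12, and CR2 fell by 1.28 ± 0.10. TRIB1 was at 6.32, 6.32 and 5.42 TPM in gSMARCA4_A2, against 0.153, 0.16 and 0.302 TPM in gAAVS1 (2.54 ± 0.12, adjusted p = 2.04e-13), and it is a pseudokinase that directs protein degradation.

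Genes of the immature thymocyte state were lower in gSMARCA4_A2. All 8 tested of the 9 thymocyte recombination genes were called lower, beside 21.1% of all genes tested. The 8 genes had a median of -1.23, and 5 fell by at least 2-fold. The summed level of the 9 genes was 103 to 111 TPM in gSMARCA4_A2 and 227 to 246 TPM in gAAVS1. With the SMARCA4 guide alone, all 8 tested were also called lower than in gAAVS1 (median -1.265). Directly against gSMARCA4, 0 were lower and 2 higher in gSMARCA4_A2 (median 0.006). RAG2, a subunit of the complex that cuts receptor genes for recombination, was at 7.14, 10.2 and 7.88 TPM in gSMARCA4_A2, against 23.4, 31.2 and 29.9 TPM in gAAVS1 (-1.64 ± 0.15). DNTT, the polymerase that adds bases at the joins, averaged 8.85 ± 0.56 TPM in gSMARCA4_A2, against 23.4 ± 1.93 TPM in gAAVS1 (-1.30 ± 0.22), and CD1B 3.01 ± 0.376 TPM in gSMARCA4_A2, against 8.76 ± 0.833 TPM in gAAVS1 (-1.28 ± 0.15). Of the 12 B cell markers 4 were tested and all 4 were lower, with a summed level of 45.2 to 46.4 TPM in gSMARCA4_A2 and 201 to 213 TPM in gAAVS1. Most of that sum was MZB1 (39.4 ± 1.17 TPM in gSMARCA4_A2, against 186 ± 5.75 TPM in gAAVS1), and CD79A, CD79B and IGLL1 made up the rest of the tested levels (-2.08, -0.72 and -0.58). The call for IGLL1 was lost without gAAVS1 replicate 3 (-0.47, adjusted p = 0.0692). Whether these transcripts came from Jurkat cells themselves was not tested, and 2 of the 12 B cell markers were at 0 in all 6 libraries.

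T cell receptor genes leaned downward, with exceptions of large size, while 21.1% of all genes tested were called lower and 40.9% higher. Of 35 genes of the receptor and its proximal signalling, 19 were called lower and 7 higher, with a median of -0.21. SASH3, an adaptor of lymphocyte receptor signals, averaged 47.7 ± 0.835 TPM in gSMARCA4_A2, against 121 ± 1.54 TPM in gAAVS1 (-1.32 ± 0.07, adjusted p = 1.37e-12). PRKCQ, the protein kinase C that links the receptor to NF-kB, went the other way, at 57.5, 58.1 and 55.9 TPM in gSMARCA4_A2, against 28.8, 26.6 and 26.5 TPM in gAAVS1 (1.04 ± 0.09, adjusted p = 1.75e-09). Of 33 T cell surface molecules 26 were tested, with 13 lower and 7 higher and a median of -0.36. CD48, a ligand of lymphocyte adhesion, averaged 3.21 ± 0.515 TPM in gSMARCA4_A2, against 15.1 ± 1.15 TPM in gAAVS1 (-1.94 ± 0.16), and CD6, a co-receptor, 7.65 ± 1.23 TPM in gSMARCA4_A2, against 26.3 ± 0.847 TPM in gAAVS1 (-1.67 ± 0.10). SLAMF6, a receptor of the SLAM family, was at 117, 109.5 and 102 TPM in gSMARCA4_A2, against 31.1, 27.6 and 26.3 TPM in gAAVS1 (1.92 ± 0.13, adjusted p = 9.16e-11).

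Homing genes likewise held large changes in both directions, while 21.1% of all genes tested were called lower and 40.9% higher. Of 26 chemokine receptor and homing genes 18 were tested, 9 lower and 6 higher, with a median of -0.32, and 5 of the decreases and 3 of the increases were at least 2-fold. Beside the decrease of CXCR4 and the increase of CCR4, the integrin subunit ITGAL averaged 7.00 ± 1.73 TPM in gSMARCA4_A2, against 27.0 ± 1.39 TPM in gAAVS1 (-1.83 ± 0.12, adjusted p = 2.22e-11). The GIMAP genes encode GTPases of lymphocyte survival and lie side by side on chromosome 7. Of 6 tested 0 were higher and 2 lower, with a median of -0.31, and 5 were lower after rescaling. GIMAP2 fell by 1.18 ± 0.11 and GIMAP6 by 0.51 ± 0.09.

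Cytokine signalling genes were called higher more often than lower, as were all genes tested. Of 30 tested genes of cytokine receptors and the JAK-STAT pathway, 19 were higher and 8 lower, with a median of 0.34. Of all genes tested, 40.9% were called higher and 21.1% lower. After rescaling, 17 of the listed genes were higher and 10 lower (median 0.23), while 49.4% of the calls over all genes were higher. Feedback inhibitors of the pathway were among those that rose. SOCS1 was at 10.3, 9.48 and 10.9 TPM in gSMARCA4_A2, against 0.99, 1.72 and 1.36 TPM in gAAVS1 (2.26 ± 0.22, adjusted p = 2.18e-08), and SOCS2 averaged 9.09 ± 0.186 TPM in gSMARCA4_A2, against 2.25 ± 0.0329 TPM in gAAVS1 (1.64 ± 0.13). IL2RG, the receptor chain shared by several interleukins, fell, at 121, 117 and 118 TPM in gSMARCA4_A2, against 299.8, 314 and 318 TPM in gAAVS1 (-1.38 ± 0.06, adjusted p = 4.48e-14).

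Interferon-stimulated genes were mixed. Of 29 tested 16 were higher and 7 lower, with a median of 0.27, and after rescaling 15 were higher and 9 lower (median 0.15). The shares over all genes tested were 40.9% higher and 21.1% lower. IFIT2 and IFIT3, which bind viral RNA or its sensors, rose by 1.11 ± 0.08 and 1.05 ± 0.10, while IFI44 averaged 0.541 ± 0.0811 TPM in gSMARCA4_A2, against 4.72 ± 0.218 TPM in gAAVS1 (-1.89 ± 0.09, adjusted p = 1.05e-13). Of 18 MHC class I genes 8 were higher and 1 lower, with a median of 0.12, and after rescaling 5 were higher and 4 lower. HLA-E, a ligand of NK cell receptors, averaged 24.0 ± 2.00 TPM in gSMARCA4_A2, against 7.59 ± 0.327 TPM in gAAVS1 (1.54 ± 0.13), TAP2 rose by 0.59 ± 0.04 and TAPBP by 0.43 ± 0.06. Reads of HLA genes can be shared between close copies, so the HLA values are uncertain.

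Immediate early genes, NF-kB genes and p53 targets leaned up, while 40.9% of all genes tested were called higher and 21.1% lower. Of 33 immediate early and AP-1 genes tested, 19 were higher and 4 lower, with a median of 0.47, and 10 rose by at least 2-fold. EGR2, a factor induced by receptor signals, was at 2.28, 1.80 and 2.6 TPM in gSMARCA4_A2, against 0.218, 0.16 and 0.263 TPM in gAAVS1 (1.40 ± 0.10, adjusted p = 2.62e-10). ATF3 rose by 1.46 ± 0.23, and ZFP36, which promotes decay of cytokine mRNAs, by 1.35 ± 0.11. Of 17 NF-kB genes tested 12 were higher and 2 lower (median 0.47). RELB, an NF-kB subunit, averaged 8.31 ± 0.428 TPM in gSMARCA4_A2, against 2.28 ± 0.201 TPM in gAAVS1 (1.5 ± 0.11), and the survival gene BIRC3 rose by 1.06 ± 0.09, TRAF1 by 1.05 ± 0.10 and TNFAIP2 by 1.01 ± 0.11. Of 22 p53 targets 15 were higher and 4 lower (median 0.44), led by TP53INP1 (1.97 ± 0.15) and the antiproliferative gene BTG2 (1.33 ± 0.10). After rescaling, members higher and lower were 18 and 5 of the immediate early, 11 and 3 of the NF-kB and 12 and 4 of the p53 genes.

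Genes of the BCL2 family, which promote or block cell death, were called in both directions. Of 16 tested 6 were higher and 6 lower, with a median of -0.06. Over all genes tested, 40.9% were called higher and 21.1% lower. BMF was at 7.94, 8.07 and 8.04 TPM in gSMARCA4_A2, against 1.20, 1.07 and 0.867 TPM in gAAVS1 (2.15 ± 0.10, adjusted p = 1.03e-13). BBC3, which encodes PUMA, averaged 5.50 ± 0.235 TPM in gSMARCA4_A2, against 2.24 ± 0.325 TPM in gAAVS1 (1.01 ± 0.14). PMAIP1, which encodes NOXA, averaged 17.3 ± 0.732 TPM in gSMARCA4_A2, against 36.1 ± 5.47 TPM in gAAVS1 (-1.01 ± 0.17), so BH3-only genes moved in opposite directions. BCL2 itself was not called (-0.26 ± 0.14, adjusted p = 0.101), and was called lower after rescaling (-0.37, adjusted p = 0.0147) and when only the compared groups were fitted (adjusted p = 0.00763).

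Nearly all DNA replication and mitosis genes on the lists were lower, while 21.1% of all genes tested were called lower and 40.9% higher. Of 29 DNA replication genes 28 were called lower and 0 higher, with a median of -0.58, and of 31 mitosis genes 28 were lower and 0 higher, with a median of -0.47. CDC6, which loads the replicative helicase, was at 29.9, 30.9 and 31.9 TPM in gSMARCA4_A2, against 69.3, 63.2 and 62.4 TPM in gAAVS1 (-1.05 ± 0.06, adjusted p = 2.08e-12), the only replication gene past 2-fold. ORC1 of the origin complex fell by 0.88 ± 0.04 and UHRF1, which keeps DNA methylation, by 0.87 ± 0.05. PTTG1 fell by 0.70 ± 0.09, CCNA2 by 0.67 ± 0.05, BUB1B by 0.64 ± 0.05 and CENPF by 0.63 ± 0.07, all of which act in mitosis. Genes that set entry into S phase were called in both directions. Of 18 tested 10 were lower and 7 higher (median -0.31), and after rescaling 10 were lower and 4 higher (median -0.43). Among them were CDK6 at 79.3 ± 5.45 TPM in gSMARCA4_A2, against 194 ± 14.2 TPM in gAAVS1, E2F1 lower by 0.64, CCND2 higher by 0.93 ± 0.06 and the inhibitor CDKN1C higher by 0.87 ± 0.08.

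Ribosome production followed the same direction, beside shares of 21.1% lower and 40.9% higher over all genes tested. Of 30 ribosome biogenesis genes 24 were lower and 1 higher (median -0.29), with LYAR at -0.87 ± 0.08 and the nucleolar proteins NPM1 at -0.61 ± 0.08 and NCL at -0.56 ± 0.07. Of 37 cytosolic ribosomal protein genes 18 were lower and 5 higher, with a median of -0.09, and after rescaling 28 were lower and 0 higher. For the 13 mRNAs encoded by mitochondria the median was 0.04, and it was -0.09 after rescaling, with 4 called lower.

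Most sterol and lipid synthesis genes fell, while 21.1% of all genes tested were called lower and 40.9% higher. Of 25 cholesterol synthesis genes 20 were lower and 2 higher, with a median of -0.80 and 6 decreases of at least 2-fold. The summed level was 2793 to 2980 TPM in gSMARCA4_A2 and 4297 to 6414 TPM in gAAVS1, with the highest control sum in gAAVS1 replicate 1. HMGCS1, which begins the mevalonate pathway, was at 154, 151 and 142 TPM in gSMARCA4_A2, against 563, 316 and 376 TPM in gAAVS1 (-1.44 ± 0.26, adjusted p = 6.12e-05). INSIG1, a sensor of sterols, was at 138, 142 and 134 TPM in gSMARCA4_A2, against 420.0, 275 and 315 TPM in gAAVS1 (-1.26 ± 0.19). Both genes were below every control library. HSD17B7 fell by 1.21 ± 0.14, as did ACAT2 by 1.22 ± 0.22. On the opposite strand ACAT2 shares 45.8% of its exonic bases with SOD2-OT1, 34.8% with SOD2 and 12.5% with TCP1. SOD2-OT1 averaged 26.5 TPM in gSMARCA4_A2 and 79.7 TPM in gAAVS1, and how much of the decrease was of ACAT2 itself was not tested. Of 15 fatty acid synthesis genes 9 were lower and 1 higher (median -0.45), with ELOVL6 at -1.60 ± 0.22, FASN at -0.91 ± 0.16 and SCD at -0.89 ± 0.18.

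Most glycolysis genes fell, and stress genes were mixed. The shares over all genes tested were 21.1% lower and 40.9% higher. Of 29 glycolysis and hypoxia genes 21 were lower and 4 higher (median -0.27), with VEGFA at 9.49 ± 0.102 TPM in gSMARCA4_A2, against 25.7 ± 8.24 TPM in gAAVS1 (-1.30 ± 0.24), and PFKM and ENO2 lower by 0.94 and 0.84. NDRG1 rose by 0.88 ± 0.17. Of 25 ATF4 stress and amino acid genes 11 were lower and 4 higher (median -0.16), while the asparagine synthetase gene ASNS was at 67.4, 75.8 and 71.7 TPM in gSMARCA4_A2, against 21.7, 15.2 and 13.9 TPM in gAAVS1 (2.04 ± 0.32, adjusted p = 1.75e-05) and DDIT4, an inhibitor of mTOR, rose by 1.19 ± 0.10. Of 15 heat shock genes 3 were higher and 4 lower (median -0.14), with BAG3 higher by 0.83 ± 0.09 and HSPD1 and HSP90AB1 lower by 0.52 and 0.50. Without strand, reads cannot be told apart where BRD9, CCNA2, HSPD1 and PFKM share 5.15 to 8.65% of their exonic bases with TRIP13, EXOSC9, HSPE1 and SENP1 on the opposite strand.

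**Figure D4:**
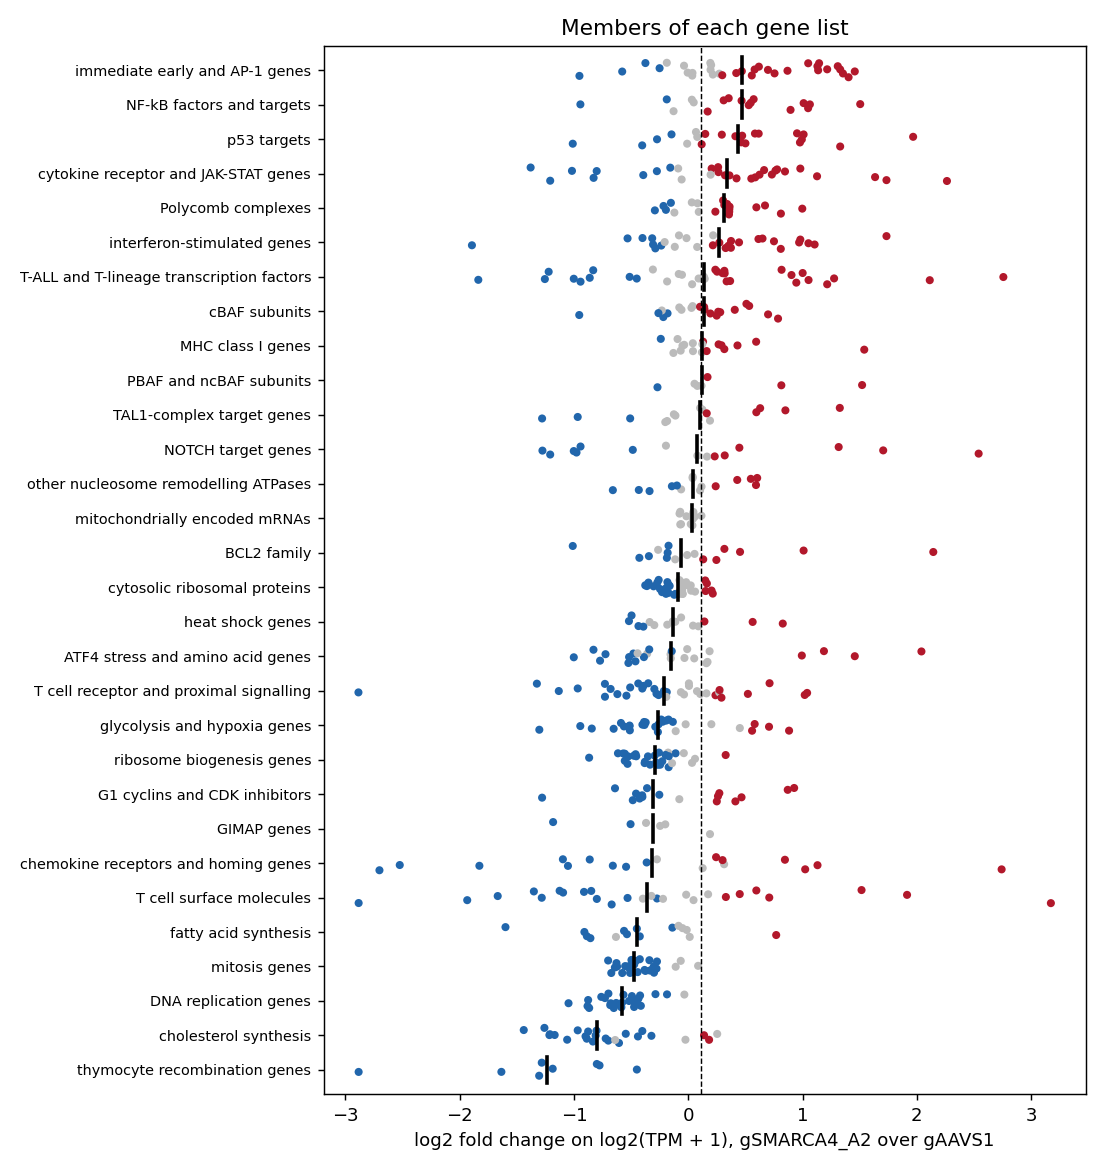
Log2 fold change of gSMARCA4_A2 over gAAVS1 for each tested member of 30 gene lists, ordered by list median (black bars), with members called higher in red, called lower in blue and not called in grey. The dashed line is the median of all genes (0.11). Immediate early genes (median 0.47) stand at the top and cholesterol (-0.80) and thymocyte recombination genes (-1.23) at the bottom.

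The group with the SMARCA4 guide alone was compared directly with gSMARCA4_A2. Whether SMARCA4 editing or the guide constructs differed between these groups was not tested, so the differences cannot be assigned to the SMARCA2 guide alone. Against gSMARCA4, 4751 genes were called higher in gSMARCA4_A2 (26.5%) and 2202 lower (12.3%), or 38.8% in either direction. Past 2-fold there were 158 increases (0.881%) and 21 decreases (0.117%). Median-ratio rescaling gave 3172 increases and 3746 decreases. The gSMARCA4 group itself, set against gAAVS1, had 4507 genes higher (25.1%) and 2831 lower (15.8%), or 40.9% in either direction, with 241 increases (1.34%) and 175 decreases (0.976%) past 2-fold.

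Several genes with large increases over gAAVS1 were also higher than in gSMARCA4. SOSTDC1 stood at 381, 366 and 346 TPM in gSMARCA4_A2 and at 115, 124 and 102 TPM in gSMARCA4 (1.68 ± 0.11, adjusted p = 4.04e-10). TRIB1 was at 6.32, 6.32 and 5.42 TPM in gSMARCA4_A2 and at 0.537, 0.748 and 0.49 TPM in gSMARCA4 (2.14 ± 0.12, adjusted p = 3.91e-11), against a mean of 0.205 TPM in gAAVS1. H2AC6 was higher by 1.82, FOXB1 by 1.67 and CRIP2 by 1.62. TAL1 was at 154, 157 and 145 TPM in gSMARCA4_A2 and at 102, 97.0 and 93.4 TPM in gSMARCA4 (0.63 ± 0.07, adjusted p = 1.41e-06). For CXCR4, by contrast, the groups did not separate, with 32.4, 30.5 and 33.7 TPM in gSMARCA4_A2 and 30.7, 32.6 and 33.9 TPM in gSMARCA4 (-0.01 ± 0.11, adjusted p = 0.96). PLA2G3 (-0.18 ± 0.31, adjusted p = 0.68) and TRAT1 (-0.18 ± 0.09, adjusted p = 0.114) were also not called against gSMARCA4.

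The largest decreases against gSMARCA4 were in genes that the SMARCA4 guide alone had raised. GIMAP5 was at 72.9, 57.1 and 63.4 TPM in gSMARCA4_A2, at 193, 163 and 164 TPM in gSMARCA4, and at 62.9, 55.2 and 51.0 TPM in gAAVS1 (-1.42 ± 0.11, adjusted p = 7.96e-09 against gSMARCA4). Its reads overlap those of the GIMAP1-GIMAP5 readthrough gene, which gave -1.37. CD28, the main costimulatory receptor of T cells, was at 3.12, 2.91 and 2.47 TPM in gSMARCA4_A2, at 9.70, 9.10 and 7.94 TPM in gSMARCA4, and at 2.73, 3.08 and 2.33 TPM in gAAVS1 (-1.37 ± 0.16, adjusted p = 9.77e-07 against gSMARCA4). Neither gene was called between gSMARCA4_A2 and gAAVS1 (GIMAP5 0.19 ± 0.11, adjusted p = 0.138, CD28 0.05 ± 0.16, adjusted p = 0.812). PNMA5 (-1.37) and GIMAP7 (-1.33) followed. All 6 GIMAP genes were lower than in gSMARCA4 (median -1.16), as were 29 of 29 replication genes (-0.39), 28 of 31 mitosis genes (-0.31), 14 of 25 cholesterol genes (-0.44) and 16 of 29 interferon-stimulated genes (-0.28, with 4 higher). Of immediate early genes 18 of 33 were higher (0.30) and 2 lower. Over all genes in this comparison, 26.5% were called higher and 12.3% lower, with a median of 0.07.

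Against gARID1A_1B, in which the ATPases were not targeted, 7740 genes were higher in gSMARCA4_A2 (43.2%) and 2510 lower (14.0%), or 57.1% in either direction. Past 2-fold there were 409 increases (2.28%) and 59 decreases (0.329%). Median-ratio rescaling gave 4808 increases and 4672 decreases. DAZL, an RNA-binding protein of germ cells and the largest increase, was at 11.7, 10.8 and 10.3 TPM in gSMARCA4_A2 and at 0.311, 0.301 and 0.335 TPM in gARID1A_1B (3.18 ± 0.07, adjusted p = 1.26e-18). VCX3A (3.00), PAGE5 (2.99), PAGE2B (2.49) and VCX (2.41), members of X-linked testis families with close copies, followed, and reads of such copies may be shared. All 5 were also higher than in gAAVS1, by 0.70 to 2.43. SOCS1 gave the largest decrease, at 10.3, 9.48 and 10.9 TPM in gSMARCA4_A2 and at 102, 121 and 107 TPM in gARID1A_1B (-3.30 ± 0.22, adjusted p = 2.54e-10). S100A4 (-3.04), LAX1 (-2.26), DNTT (-2.24) and KRT1 (-2.16) were next. CXCR4 was low in both groups, at 32.4, 30.5 and 33.7 TPM in gSMARCA4_A2 and at 25.3, 22.8 and 26.2 TPM in gARID1A_1B (0.37 ± 0.11, adjusted p = 0.00706).

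BRM014 at 8 d provides a comparison with its own control libraries, although guides were read at day 10 and the inhibitor at 8 d. Across the 17936 genes tested, the effects of the guides and of BRM014 had a Pearson correlation of 0.787 and a Spearman correlation of 0.766, a description over genes that share libraries. With BRM014, 6611 genes were called higher (36.9%) and 4127 lower (23.0%), or 59.9% in either direction, with 722 increases (4.03%) and 383 decreases (2.14%) past 2-fold. Both effects were called for 8322 genes, of which 5314 were higher in both, 2800 lower in both and 208 opposite. Increases of at least 2-fold in both were 433, which is 57.5% of those of the guides and 60% of those of BRM014, and decreases were 185, or 79.4% and 48.3%. SOSTDC1 rose by 3.85 with the guides and by 3.41 with BRM014, and TAL1 by 1.28 with the guides and by 1.26 with BRM014. MYC fell by 0.94 with the guides and by 0.93 with BRM014.

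Some decreases were smaller with the guides than with BRM014. CXCR4 fell by 2.70 with the guides and by 4.21 with BRM014, and stood at 32.4, 30.5 and 33.7 TPM in gSMARCA4_A2 and at 13.4, 12.5 and 12.1 TPM after BRM014 (difference of effects 1.5 ± 0.16, adjusted p = 8.72e-07). For MZB1 the effects were -2.21 and -4.07 (difference 1.85 ± 0.10, adjusted p = 6.94e-11), and for TRAT1 -2.89 and -4.11 (difference 1.22 ± 0.13, adjusted p = 9.06e-07). Over all genes, 1739 effects were called higher with the guides than with BRM014 (9.7%) and 1256 lower (7.0%), or 16.7% in either direction, and after rescaling 1442 were higher and 1809 lower. Differences past 2-fold numbered 126 (0.702%) and 78 (0.435%). Among the lists, 18 of 29 replication genes had a lower effect with the guides (median difference -0.21) and 11 of 25 ATF4 stress genes a higher effect (0.54). None of the 29 and none of the 25 was called in the other direction.

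**Figure D5:**
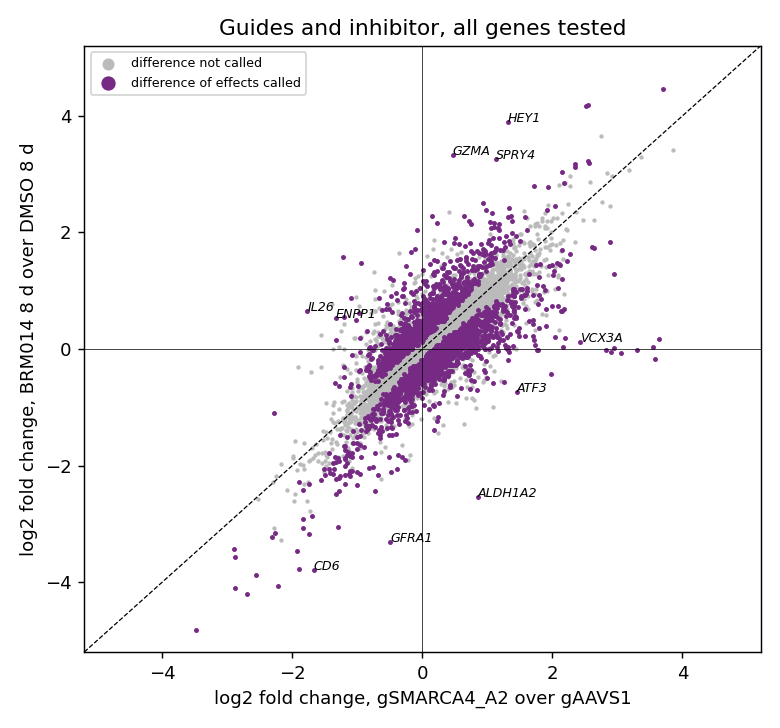
Log2 fold change of BRM014 over DMSO at 8 d against that of gSMARCA4_A2 over gAAVS1 for the 17936 genes tested, with equal effects on the dashed diagonal and genes whose effects differed in purple. Most genes follow the diagonal, and ALDH1A2, GFRA1, ATF3, VCX3A and CD6 lie below it while HEY1, GZMA, SPRY4, IL26 and ENPP1 lie above it. The unlabelled points near 0 on the vertical axis and past 2.5 on the horizontal axis include 8 genes listed under provisional LOC names.

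Few genes crossed from under 1 TPM to 5 TPM or more. Of the protein-coding genes, 7 were at 5 TPM or more in every gSMARCA4_A2 library and under 1 TPM in every gAAVS1 library, and 1, PLA2G3, did the reverse. The 7 were EEF1A2, PIFO, CRIP2, TRIB1, TNFSF12, GPSM1 and H2AC7. TNFSF12, the cytokine TWEAK, was at 6.02, 5.68 and 5.30 TPM in gSMARCA4_A2, against 0.319, 0.391 and 0.513 TPM in gAAVS1 (2.25 ± 0.14), and it shares 35.6% of its exonic bases with the readthrough gene TNFSF12-TNFSF13. GPSM1, a regulator of G proteins, averaged 6.60 ± 0.569 TPM in gSMARCA4_A2, against 0.678 ± 0.0797 TPM in gAAVS1 (2.18 ± 0.10). H2AC7, a second histone H2A gene, averaged 6.88 ± 1.24 TPM in gSMARCA4_A2, against 0.848 ± 0.14 TPM in gAAVS1 (2.08 ± 0.15). Poly(A) RNA leaves out histone mRNA without a poly(A) tail, so a low value of H2AC7 does not show a silent gene.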

How the data were processed

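Gene levels were tables of TPM (transcripts per 1e6, scaled for length) that the authors deposited, and whole reads were recovered from TPM and gene length (all values whole within 0.01), which gave the depth per library. Per the submitters' processing notes the tools included HISAT2 2.2.1, featureCounts 2.0.3 and DESeq2 1.38.2, and the build was hg38. Per the labels' protocols the library kit was non-directional. Here, limma 3.58.1 (R 4.3.3) was fitted to log2(TPM + 1) over the 27 Jurkat libraries in 9 groups, for the 17936 of 38557 genes with 1 TPM or more in at least 3 libraries, with a mean-variance trend and robust moderation, and it was tested on simulated data. Benjamini-Hochberg adjusted p under 0.05 made a call. The named genes were fixed targets and T-ALL factors, the 12 largest changes per direction among protein-coding genes at 5 TPM or more with separated libraries, 5 per direction for each further comparison, up to 4 called members per list, genes switched on or off, and uncalled members for contrast. Some genes that this rule names are not reported here. The members and lists were chosen with earlier results of these data known. Alternatives were median-ratio rescaling, a pseudocount of 0.1, a 5 TPM filter or none, mitochondrial genes left out, limma without trend and robust moderation, limma-voom on recovered reads, a fit of only the compared groups, a replicate block and leaving out each library. The labels call replicates biological. Depth intervals for single values were not used, since SD over libraries includes counting error.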

Additional observations from a re-analysis of the deposited data

Results flagged for a closer look

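For 10 genes, the effect of the guides (gSMARCA4_A2 over gAAVS1) differed from the effect of BRM014 over DMSO at 8 d by limma's test of the difference itself, and these were the 5 largest differences in each direction. The guides were read on day 10 and each comparison had its own control libraries, so time, agent and control cannot be told apart in these differences. ALDH1A2, which makes retinoic acid, had 629, 611 and 594 TPM in gSMARCA4_A2, against 376, 322 and 321 TPM in gAAVS1. After BRM014 it was at 96.3, 84.8 and 76.8 TPM, against 687, 468 and 396 TPM in DMSO. The effects were 0.85 with the guides and -2.54 with BRM014, and the difference was 3.39 ± 0.23, adjusted p = 3.25e-09. GFRA1, a receptor of GDNF, had effects of -0.50 and -3.32 (difference 2.82 ± 0.18, adjusted p = 1.05e-09). CD6 fell in both, by 1.67 with the guides and by 3.78 with BRM014, which left 0.547, 0.472 and 0.677 TPM after BRM014 (difference 2.12 ± 0.14, adjusted p = 6e-10). ATF3 had effects of 1.46 with the guides and -0.75 with BRM014 (difference 2.2 ± 0.33, adjusted p = 0.000119). For VCX3A the effects were 2.43 with the guides and 0.12 with BRM014 (difference 2.31 ± 0.23, adjusted p = 3.26e-07), and this difference was not called by limma-voom on recovered reads (adjusted p = 0.133).

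In the other direction, GZMA, a cytotoxic granule protease, had an effect of 0.47 with the guides (adjusted p = 0.117) and of 3.34 with BRM014, with 25.2, 20.8 and 31.4 TPM after BRM014 and 2.52, 1.68 and 0.901 TPM in DMSO (difference -2.87 ± 0.36, adjusted p = 1.44e-05). HEY1, a NOTCH target, rose by 1.32 with the guides and by 3.90 with BRM014 (difference -2.58 ± 0.17, adjusted p = 7.41e-10). SPRY4, an inhibitor of RAS signalling, rose by 1.14 and by 3.27 (difference -2.13 ± 0.23, adjusted p = 1.63e-06). IL26 had effects of -1.77 with the guides and 0.65 with BRM014 (difference -2.41 ± 0.28, adjusted p = 3.28e-06). ENPP1 had effects of -1.33 and 0.54 (difference -1.86 ± 0.12, adjusted p = 5.04e-10).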

How the results depend on the processing

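Of the 167 genes named for gSMARCA4_A2 against gAAVS1, 155 kept their direction and their side of the threshold under every alternative, as did 10 of 10 named against gSMARCA4, 10 of 10 against gARID1A_1B and 9 of 10 for the difference from BRM014. With a pseudocount of 0.1, a filter at 5 TPM and limma-voom on recovered reads, genes higher by at least 2-fold numbered 1393, 477 and 1449 against gAAVS1, 361, 105 and 423 against gSMARCA4, and 907, 271 and 868 against gARID1A_1B, and those lower than in gSMARCA4 49, 13 and 56. At the same 2-fold limit, genes lower than in gAAVS1 were 374 with voom, genes lower than in gARID1A_1B were 114 with the pseudocount, 95 after median-ratio rescaling and 142 with voom, and effects higher and lower than those of BRM014 were 237 and 146 with the pseudocount and 240 and 169 with voom. With no limit on fold, median-ratio rescaling gave 3746 genes lower than in gSMARCA4, and 4808 higher and 4672 lower than in gARID1A_1B. When only the compared groups were fitted, 942 effects were higher than those of BRM014. SMARCA2 turned to -0.087 after rescaling (adjusted p = 0.255). CD28 turned to -0.049 after rescaling, and leaving out 1 library gave -0.029 to 0.116, with -0.029 without gAAVS1 replicate 3 and -0.008 without gSMARCA4_A2 replicate 1, none of them called. Leaving out 1 library at a time gave 6628 to 7251 genes higher and 3369 to 3639 lower than in gAAVS1 (712 to 808 and 215 to 246 at 2-fold), 3543 to 4587 and 1727 to 1953 against gSMARCA4 (129 to 172 and 18 to 26), 6585 to 7626 and 2101 to 2365 against gARID1A_1B (379 to 463 and 59 to 65), and 1003 to 2267 and 911 to 1396 against the BRM014 effect (104 to 153 and 77 to 90). Effects higher than those of BRM014 numbered 1003 without gAAVS1 replicate 3, 1040 without gSMARCA4_A2 replicate 1, 1152 without DMSO replicate 1 and 1145 without BRM014 replicate 3. The cause was not tested.

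The main fit did not pair samples by replicate number. Same-numbered deviations of gSMARCA4_A2 and gAAVS1 correlated at 0.043, -0.009 and 0.072. The same number gave the highest correlation for replicates 1 and 3 but not for replicate 2, so a weak pairing is not excluded. With the replicate block, 7401 genes were higher and 3832 lower than in gAAVS1, 4884 and 2279 against gSMARCA4, 7845 and 2568 against gARID1A_1B, and 1963 and 1346 effects against that of BRM014.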

Other observations

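Some of the largest increases were in genes outside the rule for named genes, and they were singled out after their values were seen. Among genes listed under provisional LOC names, 8 had a log2 fold change of at least 2.5 in gSMARCA4_A2 over gAAVS1. The highest, LOC105379508, stood at 1316, 1150.0 and 1020.0 TPM in gSMARCA4_A2, against 96.6, 88.9 and 88.9 TPM in gAAVS1 (3.65 ± 0.13, adjusted p = 8.72e-15). In the other 24 Jurkat libraries it lay between 55.3 and 109 TPM, and its effect with BRM014 at 8 d was 0.17 (adjusted p = 0.27). The other LOC genes were LOC105379506 (3.57), LOC105379507 (3.55), LOC105379549 (3.31), LOC107987294 (3.06), LOC107987293 (2.94), LOC107987393 (2.90) and LOC100507412 (2.82), and none of the 8 was called with BRM014. Against gSMARCA4, all 8 were called higher in gSMARCA4_A2, by 2.57 to 3.71. Near-identical copies may share reads among them, so their values are uncertain one by one. Whether reads of the guide constructs or of repeats were counted in these genes was not tested, so the levels may not be those of the genes' own transcripts.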
